A study of Mus musculus and Homo sapiens with 20 samples.

Results

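The 19826 regions described here are stretches of open chromatin in mouse hepatocytes that had an ATAC-seq peak in all 12 hepatocyte libraries and whose strongest peak was centred within 1 kb of either end of a protein-coding gene. They make up 19.5% of the 101575 regions with a peak in all 12 libraries, and were drawn from 642948 hepatocyte regions in all. In ATAC-seq, the transposase Tn5 inserts sequencing adapters into accessible DNA, so the number of tags at a site reads how open it is. The hepatocytes carried a floxed allele of Ahr (AhR_flox in the labels), the gene of the aryl hydrocarbon receptor, a ligand-activated transcription factor of xenobiotic metabolism. All were labelled 4 weeks. They fell into 4 groups of 3 libraries: B2_minus_Ad_Cont, Cont_Ad_Cont, B2_minus_Ad_Cre and Cont_Ad_Cre. B2_minus stands for vitamin B2 (riboflavin) deficiency and Cont for its control. Cre is a recombinase that removes DNA between loxP sites, and Ad_Cont is by its name the control of Ad_Cre; the labels do not spell out Ad. All 4 groups shared the floxed allele, and the protocol describes cultured cells. Whether replicates are separate cultures or separate animals is not in the labels, so every p-value here reads the variation among these libraries, part of which may be technical. The series also held 8 libraries of the human line HepG2, not analysed here.

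Most genes that a cell transcribes have an accessible window at the transcription start, where nucleosomes are displaced and general and gene-specific factors bind. CpG-rich starts, common among housekeeping genes, tend to be open in many cell types, whereas sites that differ between cell types or conditions more often lie in distal enhancers. Riboflavin is the precursor of FMN and FAD, the cofactors of flavoproteins in fatty acid oxidation, the respiratory chain, choline breakdown and histone demethylation.

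An annotated gene start lay within 1 kb of 14081 of the gene-end regions (71.0%), and 1984 (10.0%) had only the 3′ end of a gene within 1 kb. For the remaining 3761 (19.0%) the strand of the gene was not in the tables used, so start and 3′ end could not be told apart. Of the gene-start regions, 1385 had a start on each strand within 1 kb. They are called divergent starts here, though whether the genes face apart or overlap was not checked. Together the gene-end regions touched 13339 of 21627 protein-coding genes (61.7%). Sites found in more libraries were more often at gene ends: 5.72% of the regions with a peak in 1 library lay there, 15.3% of those with a peak in 11, and 19.5% of those with a peak in all 12.

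The promoters of 5 regions are printed to show the sequence at the sites the results turn on: 3 named gene-start regions with a low p in the diet comparison, and 2 of the strongest gene-start regions. They were taken in order of p and of level among regions with a window of the table nearby, passing over genes with provisional symbols; Mical3 and 1600014C23Rik, with lower p than Cit and Khdrbs2, and 1600014C10Rik, stronger than Rab40c, are therefore not shown. Each line gives the 250 bases before the start in RefSeq's promoter table (GRCm38.p6, the assembly of mm10), 5′ to 3′ on the strand of the gene. Capitals mark matches on either strand to the motifs CCAAT, which the factor NF-Y binds, GGGCGG, the core of the box bound by Sp1, and TATAAA, the core of the TATA box. They also mark TGACTCA, which AP-1 factors bind, TGACGTCA, which CREB factors bind, CCGGAAG, which ETS factors bind, and GCGTG, the core bound by the aryl hydrocarbon receptor with its partner. Matches of different motifs may overlap. A match is a string of letters and not a measured binding site. Only for Rab40c is the start in the promoter table the gene end from which offsets are given elsewhere in the text. For Gsta2, Khdrbs2, Hjurp and Cit the promoter-table start is another one. It lies 41, 44, 29 and 482 bases downstream of the centre of the open region.
Gsta2 (chr9:78347146-78347395, minus strand): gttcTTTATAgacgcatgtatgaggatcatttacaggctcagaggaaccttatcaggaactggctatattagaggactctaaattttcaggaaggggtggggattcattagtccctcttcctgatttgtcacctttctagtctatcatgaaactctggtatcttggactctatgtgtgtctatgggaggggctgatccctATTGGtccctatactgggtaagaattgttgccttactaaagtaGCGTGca
Khdrbs2 (chr1:32172472-32172721, plus strand): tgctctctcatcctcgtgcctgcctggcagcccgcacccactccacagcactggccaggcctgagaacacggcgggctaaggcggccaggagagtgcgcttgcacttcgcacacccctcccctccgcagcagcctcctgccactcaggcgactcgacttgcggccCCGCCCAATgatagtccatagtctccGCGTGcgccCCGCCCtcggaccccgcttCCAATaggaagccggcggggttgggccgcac
Cit (chr5:115845406-115845655, plus strand): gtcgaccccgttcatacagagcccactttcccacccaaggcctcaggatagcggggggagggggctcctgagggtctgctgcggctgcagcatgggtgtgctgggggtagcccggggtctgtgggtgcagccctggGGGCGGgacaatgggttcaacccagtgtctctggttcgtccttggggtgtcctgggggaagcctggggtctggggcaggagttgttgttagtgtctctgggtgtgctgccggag
Hjurp (chr1:88277580-88277829, minus strand): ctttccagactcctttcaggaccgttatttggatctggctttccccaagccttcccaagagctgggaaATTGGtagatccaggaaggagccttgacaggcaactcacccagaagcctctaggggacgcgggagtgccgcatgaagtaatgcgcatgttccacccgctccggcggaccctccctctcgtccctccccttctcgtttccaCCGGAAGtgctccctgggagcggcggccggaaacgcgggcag
Rab40c (chr17:25919715-25919964, minus strand): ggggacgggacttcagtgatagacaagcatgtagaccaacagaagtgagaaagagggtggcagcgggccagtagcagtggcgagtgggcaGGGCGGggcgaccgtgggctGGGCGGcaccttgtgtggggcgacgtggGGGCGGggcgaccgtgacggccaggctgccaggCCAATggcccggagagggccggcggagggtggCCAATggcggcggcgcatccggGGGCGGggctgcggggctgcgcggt
The Gsta2 window has 43.2% G and C with 2 CpG dinucleotides. It holds TATAAA on the opposite strand, CCAAT on the opposite strand and GCGTG, the core of the element that the aryl hydrocarbon receptor binds. The Khdrbs2 window has 68.8% G and C with 21 CpG dinucleotides; its run CCGCCCAAT is a GGGCGG match on the opposite strand that overlaps a CCAAT match. The Rab40c window, with 72.4% G and C, has 4 GGGCGG matches and 2 CCAAT matches. Hjurp has CCGGAAG, the core bound by ETS factors, 42 bases before its promoter-table start.

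Promoters next to gene-end regions were richer in G and C than the remaining promoters of protein-coding genes. Their median G and C content was 61.7% (9564 promoters), against 51.3% for the other 11480. The observed over expected CpG ratio had a median of 0.772 against 0.290. GGGCGG, the core of the GC box, occurred in 67.6% of them, against 29.2% of the others and 46.7% of all promoters of the same 300 bases. CCGGAAG occurred in 17.7% against 6.66% (11.7% of all), and TATAAA, the TATA box core, in 7.02% against 17.4% (12.7% of all). CCAAT hardly separated them, at 39.0% against 38.0% (38.5% of all). GCGTG, which itself holds a CpG, was found in 53.2% against 26.9% (38.8% of all). These shares are descriptions; no test was made over promoters.

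Gene-end regions were the more open part of the shared landscape. Their median level was 43.1 scaled tags (tags per region after scaling the libraries to one size, mean of 12 libraries), against 21.1 in the 81749 regions elsewhere. The gap had the same sign in 12 of 12 libraries, with a mean difference of 21.7 scaled tags and a range of 20.2 to 23.1 (exact two-sided sign-flip permutation test, p = 0.000488, the smallest that 12 libraries allow). Of the gene-end regions 28.8% were in the strongest decile (10%) of all tested regions, against 5.43% of the others. The excess sat at starts: gene-start regions had a median of 48.4 scaled tags, regions with only a 3′ end 20.4, and regions of unknown strand 39.4. Starts exceeded 3′ ends in 12 of 12 libraries by a mean of 27.6 scaled tags (exact sign-flip permutation test, p = 0.000488). Divergent starts were higher still, at 61.5 against 47.0 for the other starts.

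The level depended on where the strongest peak sat relative to the start. It was highest when the centre lay 250 to 100 bp upstream, with a median of 73.3 scaled tags. It was 64.4 in the next 100 bp up to the start and 59.3 in the first 100 bp of the gene. Further out it was 26.0 at 1000 to 500 bp upstream and 28.5 at 500 to 1000 bp downstream. At the 1 kb limit itself, the 1044 regions centred 900 to 1000 bp from the nearest gene end had a median of 23.9 scaled tags, and the 910 regions in the next 100 bp outside it 22.6.

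**Figure D1:**
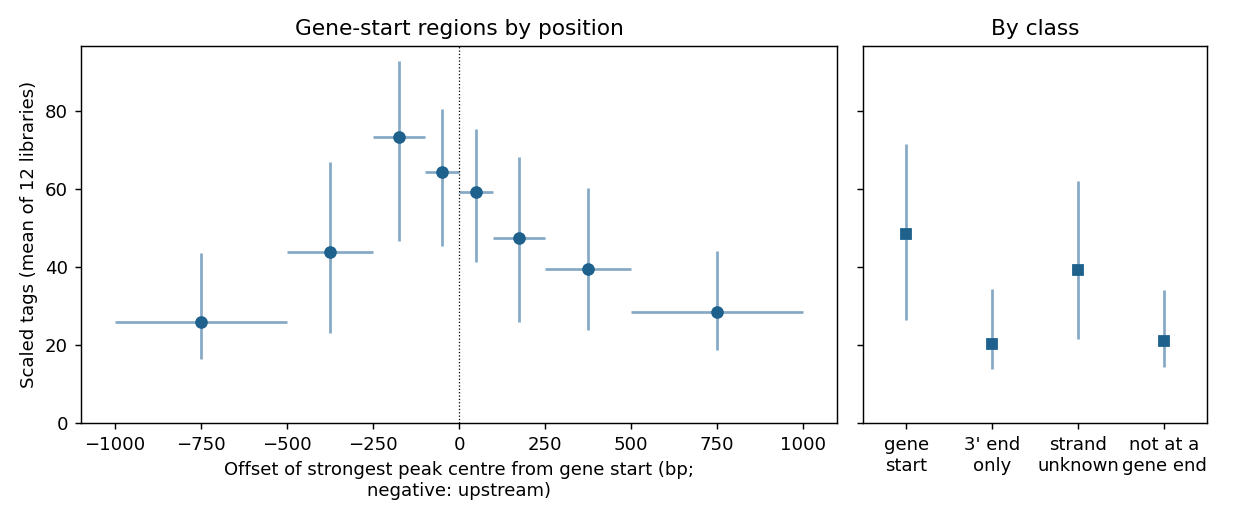
Scaled tags per region (mean of 12 libraries) for gene-start regions by the offset of the strongest peak from the start in bp (left) and for the 4 classes of region (right). Points are medians, vertical bars the middle 50% of regions and horizontal bars the width of each offset range; the level is highest at 250 to 100 bp upstream, with a median of 73.3.

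None of the 5 strongest gene-end regions passed the threshold between diets. The region 36 bp inside the start of Hjurp (chr1:88277508-88277747), which encodes the chaperone that loads the centromeric histone CENP-A, had 171, 199 and 188 scaled tags in the B2_minus_Ad_Cont libraries, against 191, 179 and 185 in the Cont_Ad_Cont libraries. With Ad_Cre it had 174, 187 and 184 in the B2_minus_Ad_Cre libraries, against 181, 176 and 166 in the Cont_Ad_Cre libraries. The ranges of the diets overlapped in both arms (log2 fold change 0.04, SE 0.0376; edgeR adjusted p 0.649). Next in level were 1600014C10Rik, with a mean of 139 scaled tags and an averaged diet change of -0.02 on the log2 scale, and Mtmr4, a myotubularin-family phosphatase, with a mean of 136 and a change of 0.03. After them came Rab40c, which encodes a Rab-like GTPase, and Usp20, which encodes a deubiquitinase, with means of 128 and 127 scaled tags and changes of -0.04 and -0.06. The edgeR adjusted p-values of these 4 were between 0.483 and 0.897. Replicates were closer at gene ends, where the coefficient of variation between replicates had a median of 10.1%, against 14.9% elsewhere. In the strongest decile alone it was 6.45% at gene ends and 6.88% elsewhere.

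The diet comparison asked how riboflavin deficiency changed accessibility, here as the average of the B2_minus over Cont difference over both Ad arms. At gene ends 634 regions changed: 267 rose (1.35%, against 2.45% of all tested regions) and 367 fell (1.85%, against 3.33%) in B2_minus libraries (edgeR quasi-likelihood test, Benjamini-Hochberg adjusted p under 0.05 over all 101575 regions). That was 3.20% of the gene-end regions, against 5.78% of all tested regions and 6.40% of the regions elsewhere. Differences were small: the median log2 fold change was 0.31 for the regions that rose and -0.53 for those that fell, and 0.00 over all gene-end regions. In 282 of the 19826 (1.42%) the 6 B2_minus libraries and the 6 Cont libraries did not overlap, against 2.23% of all tested regions. By class, 418 gene-start regions changed (2.97%), 81 with only a 3′ end (4.08%) and 135 of unknown strand (3.59%). Divergent starts changed in 26 cases (1.88%), against 3.09% of the other starts. No test was made of the differences between these shares, because regions are not replicates.

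The share called depended on the test and on scaling. With the variance held at or above Poisson noise edgeR called 60 gene-end regions (17 higher, 43 lower), all among the 634. That was 0.303%, against 0.981% of all tested regions. DESeq2 called 4 (0.0202%, against 0.0453% of all tested regions). These 4 were at Mical3, Gsta2, 1600014C23Rik and Cit. When libraries were scaled by all listed tags, the median of all tested regions moved to 0.10 and 2039 gene-end regions were called, 1863 higher and 176 lower. That was 10.3%, against 11.6% of all tested regions. Cyclic loess scaling gave 603, 171 higher and 432 lower (3.04%, against 4.98% of all tested regions). The split between regions that rose and fell is therefore a statement relative to the typical shared region.

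The rises at Mical3, Gsta2 and 1600014C23Rik and the fall at Cit stayed past the threshold under every scaling, test and peak summary run and without each library in turn.

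Mical3 encodes a member of the MICAL family, FAD-dependent monooxygenases that act on actin. Its open region, 21 bp upstream of the start (chr6:121173585-121173889), had 36.7, 26.7 and 33.7 scaled tags in the B2_minus_Ad_Cont libraries, against 17.7, 17.9 and 15.1 in the Cont_Ad_Cont libraries. Its values with Ad_Cre were 44.9, 36.4 and 35.4 in the B2_minus_Ad_Cre libraries, against 16.5, 17.9 and 20.2 in the Cont_Ad_Cre libraries. Every B2_minus library was above every Cont library (log2 fold change 1.01, SE 0.135; edgeR adjusted p 5.26e-08). Gsta2 encodes a glutathione transferase that conjugates reactive compounds to glutathione, and in rodents is a known target of the aryl hydrocarbon receptor and of NRF2. The region over its start (chr9:78347083-78347345) had 52.0, 53.3 and 42.1 scaled tags in the B2_minus_Ad_Cont libraries, against 24.3, 29.9 and 22.7 in the Cont_Ad_Cont libraries. In the Ad_Cre arm it had 52.2, 46.9 and 49.0 in the B2_minus_Ad_Cre libraries, against 25.4, 28.8 and 25.4 in the Cont_Ad_Cre libraries. Again no library of one diet overlapped the other (log2 fold change 0.91, SE 0.106; edgeR adjusted p 1.8e-10). The printed Gsta2 window with its GCGTG match overlaps this region.

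Cit encodes citron kinase, which works in cytokinesis. The region at its start (chr5:115845017-115845314) had 26.9, 14.9 and 25.2 scaled tags in the B2_minus_Ad_Cont libraries, against 40.9, 38.8 and 32.4 in the Cont_Ad_Cont libraries. The Ad_Cre arm gave 15.6, 18.2 and 15.4 in the B2_minus_Ad_Cre libraries, against 27.6, 35.8 and 37.7 in the Cont_Ad_Cre libraries. All 6 B2_minus libraries were below all 6 Cont libraries (log2 fold change -0.88, SE 0.133; edgeR adjusted p 1.46e-06). The region upstream of 1600014C23Rik (chr17:45734895-45735250), a gene with no assigned role in the tables used, ranged over 49.0 to 69.9 scaled tags in the 6 B2_minus libraries, against 27.6 to 41.2 in the 6 Cont libraries (log2 fold change 0.68, SE 0.0918; edgeR adjusted p 5.26e-08).

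Further gains were moderate. Bbox1 encodes gamma-butyrobetaine hydroxylase, the last enzyme of carnitine synthesis, and its region 111 bp upstream of the start (chr2:110314724-110315039) had 34.0, 33.0 and 41.0 scaled tags in the B2_minus_Ad_Cont libraries, against 32.0, 26.9 and 19.4 in the Cont_Ad_Cont libraries. With Ad_Cre it had 40.7, 39.3 and 43.5 in the B2_minus_Ad_Cre libraries, against 16.5, 19.9 and 26.3 in the Cont_Ad_Cre libraries. The separation was complete in each arm (log2 fold change 0.70, SE 0.122; edgeR adjusted p 2.88e-05). Nucb1, which encodes the calcium-binding protein nucleobindin, gained at its 3′ end, with 17.2 to 31.6 scaled tags in the 6 B2_minus libraries, against 9.94 to 15.4 in the 6 Cont libraries (log2 fold change 0.84, SE 0.171; edgeR adjusted p 0.000469). At the 3′ end of Papss2, whose enzyme makes the sulfate donor for sulfation, the values were 13.6 to 21.9 scaled tags in the 6 B2_minus libraries, against 8.64 to 13.9 in the 6 Cont libraries (log2 fold change 0.62, SE 0.176; edgeR adjusted p 0.0178). A region 664 bp from an end of Gbp2b, the gene of an interferon-induced guanylate-binding protein, also gained. It had 15.4 to 26.9 scaled tags in the 6 B2_minus libraries, against 7.96 to 16.2 in the 6 Cont libraries (log2 fold change 0.65, SE 0.171, edgeR adjusted p 0.00888). That end of Gbp2b is not the annotated start near the region. The start lies further away, and Gbp2 is the other gene within 1 kb. The region is named here by its nearest gene, and the gain cannot be assigned to Gbp2b over Gbp2. Mab21l3 rose by 0.65 and Celf4, an RNA-binding protein gene, by 0.65 on the log2 scale (edgeR adjusted p 0.0155 and 0.000653). The Gbp2b call was lost without replicate 2 of Cont_Ad_Cont or of B2_minus_Ad_Cre, the Mab21l3 call without replicate 3 of Cont_Ad_Cont or 2 of B2_minus_Ad_Cont, and the Papss2 call without any one of 4 libraries.

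The largest falls were at weaker sites. Khdrbs2, which encodes an RNA-binding splicing regulator of the STAR family, had an open region 76 bp inside its start (chr1:32172508-32172824) with 8.06, 9.59 and 13.7 scaled tags in the B2_minus_Ad_Cont libraries, against 21.0, 16.9 and 30.2 in the Cont_Ad_Cont libraries. Its values with Ad_Cre were 9.39, 9.58 and 9.07 in the B2_minus_Ad_Cre libraries, against 15.4, 22.9 and 23.7 in the Cont_Ad_Cre libraries. No values of the diets overlapped (log2 fold change -1.14, SE 0.179; edgeR adjusted p 4.08e-06). Several B2_minus values here are close to the floor of the peak lists (no peak was listed below 6 to 8 tags, depending on the library), which bounds how low a tested region can go. Ccl7, which encodes a chemokine that attracts monocytes, had 13.4, 9.59 and 8.42 scaled tags in the B2_minus_Ad_Cont libraries, against 29.8, 21.9 and 25.9 in the Cont_Ad_Cont libraries (chr11:82045483-82045795). In the Ad_Cre arm it had 9.39, 15.3 and 9.97 in the B2_minus_Ad_Cre libraries, against 19.8, 17.9 and 22.8 in the Cont_Ad_Cre libraries, so the diets again stood apart (log2 fold change -1.03, SE 0.172; edgeR adjusted p 1.44e-05). Plcd1, a phospholipase C gene, had 7.30 to 14.7 scaled tags in the 6 B2_minus libraries, against 18.7 to 21.6 in the 6 Cont libraries (log2 fold change -1.05, SE 0.177; edgeR adjusted p 1.74e-05).

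Further large falls were at genes of varied function. Adcy3, an adenylate cyclase gene, had 6.26 to 9.97 scaled tags in the 6 B2_minus libraries, against 12.3 to 22.7 in the 6 Cont libraries (log2 fold change -0.99). Ptpn14 encodes a tyrosine phosphatase that restrains the coactivator YAP, and its region fell by 0.83 on the log2 scale (edgeR adjusted p 0.000531). Gfra2, the co-receptor of neurturin, fell by 0.85, Osr2, a zinc finger transcription factor gene, by 0.83, and Hspb2, a small heat shock protein gene, by 0.91 (edgeR adjusted p 0.000988, 0.000658 and 0.000238). Spp1 encodes osteopontin, which cholangiocytes and injured liver are known to make. It fell at both of its gene-start regions: the distal one had 6.35 to 12.6 scaled tags in the 6 B2_minus libraries, against 12.1 to 19.4 in the 6 Cont libraries (log2 fold change -0.83), and the one 86 bp upstream had 14.7 to 27.7 scaled tags in the 6 B2_minus libraries, against 25.4 to 39.4 in the 6 Cont libraries (log2 fold change -0.56). The second call was lost without replicate 3 of Cont_Ad_Cre.

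**Figure D2:**
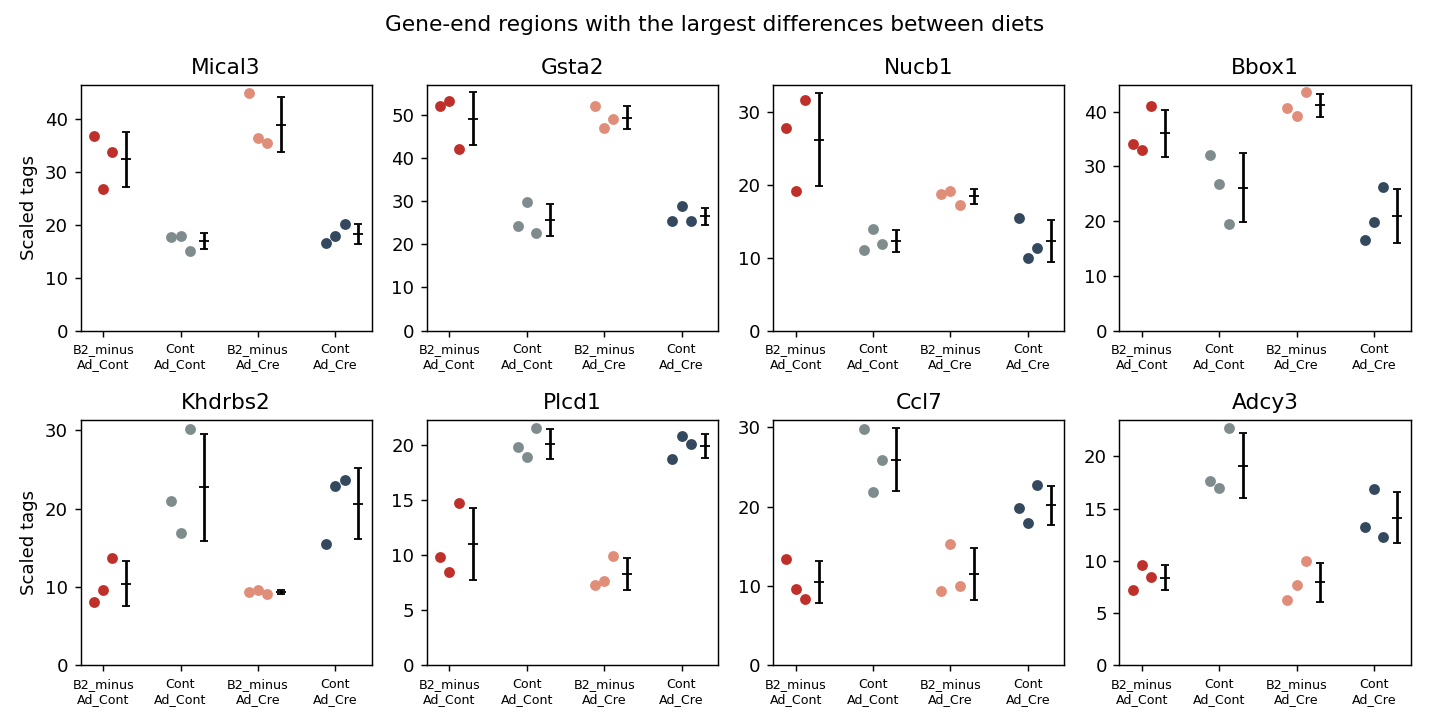
Scaled tags in each of the 12 libraries for the named gene-end regions with the largest rises (top) and falls (bottom) in B2_minus. Dots are libraries and bars the mean ± SD of 3; at Gsta2 the B2_minus libraries lie between 42.1 and 53.3, above all Cont libraries.

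The regions that rose and those that fell differed in level. Of the 267 that rose, 201 were in the 3 strongest deciles of all tested regions, which held 11520 of the gene-end regions, and 23 were in the weakest 5 deciles. Of the 367 that fell, 134 were in the 3 strongest deciles and 176 in the weakest 5, which held 5104. In the weakest decile 1 gene-end region rose and 40 fell, beside a median log2 fold change of -0.15 over all 968 gene-end regions there. The regions elsewhere had a median of -0.10 in that decile. With cyclic loess, which removes a trend with level, the gene-end median in the weakest decile was -0.05. The part of this trend in the falls at weak sites was not tested.

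Level for level, the share called was lower at gene ends than elsewhere in 9 of 10 deciles, a difference that was not tested over libraries. In the strongest decile 2.36% of the gene-end regions changed, against 6.17% of the others, and in decile 8 it was 3.90% against 8.62%. The weakest decile was the exception, with 4.24% against 3.36%. Over 24 other ways of processing, the gene-end share was the lower one in 23. The exception was the set of regions with a peak in at least 3 libraries, where it was 1.75% against 1.63%. In that set a library without a peak was given its lowest listed count, so part of the values were filled in and not measured.

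**Figure D3:**
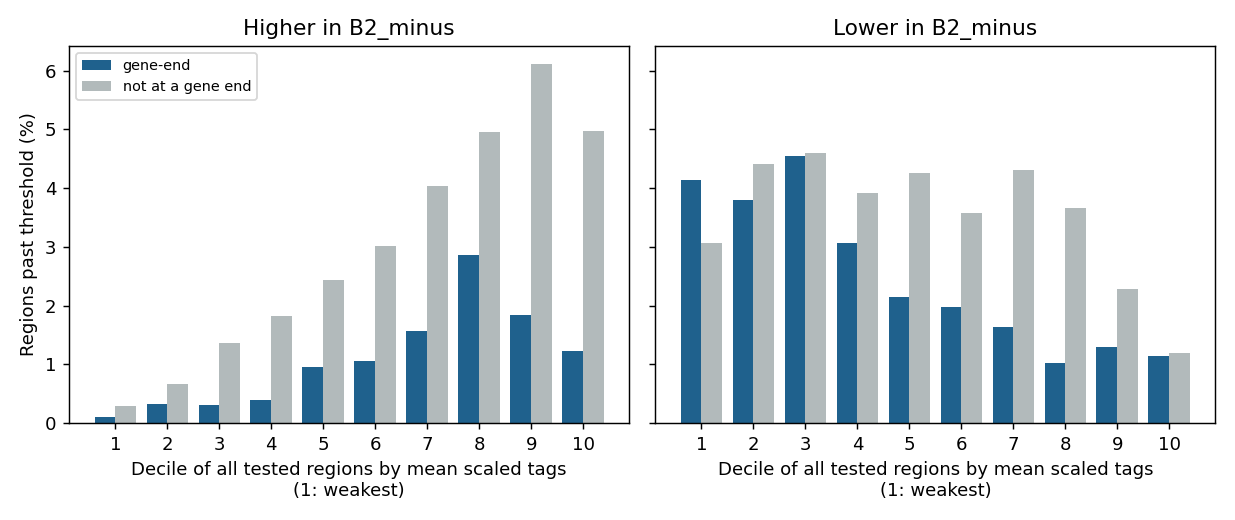
Percent of gene-end regions and of regions not at a gene end that rose (left) or fell (right) in B2_minus, by decile of mean scaled tags over all tested regions (edgeR adjusted p under 0.05). In the strongest decile 2.36% of the gene-end regions changed in either direction, against 6.17% of the others.

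Promoters next to regions that moved differed in composition. Those next to regions higher in B2_minus (170 promoters) had a median G and C content of 56.7%. Those next to regions lower in B2_minus (215) had 65.0%, against 61.7% next to regions that did not pass the threshold. A promoter with several regions can be in several of these groups. GGGCGG was found in 54.7% of the first group and 76.3% of the second, against 67.7% of those not called. TGACTCA, the element that AP-1 factors bind, was found in 3.53% and 6.51%, against 3.54%. CCGGAAG was found in 20.0% and 10.2%, against 17.8%. GCGTG was found in 44.1% and 54.0%, against 53.4%. For CCAAT the shares were 41.2% and 31.2%, against 39.1%. By level, promoters next to regions of the strongest decile had 63.0% G and C and GGGCGG in 77.2%, and those next to regions of the weakest 5 deciles 61.3% and 63.4%. CCAAT was in 48.1% of the former and 36.4% of the latter, and in 33.6% of those next to deciles 6 to 9. These are counts over promoters without a test.

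Within each Ad arm the same comparison rests on 3 libraries a group. With Ad_Cont 109 gene-end regions changed, 39 higher and 70 lower in B2_minus (0.550%, against 1.04% of all tested regions, 0.423% higher and 0.618% lower). With Ad_Cre 108 changed, 42 higher and 66 lower (0.545%, against 1.13% of all tested regions, 0.354% higher and 0.774% lower). These counts depend on the test and on single libraries: with Ad_Cont and with Ad_Cre DESeq2 called 0 and 0, edgeR with variance held at Poisson 2 and 5, and summed peaks 10 and 8. Leaving out 1 library of the comparison gave 22 to 58 calls with Ad_Cont, fewest without replicate 1 of B2_minus_Ad_Cont, and 31 to 59 with Ad_Cre, fewest without replicate 3 of Cont_Ad_Cre. The libraries of the diets did not overlap in 14.7% of gene-end regions with Ad_Cont and 15.1% with Ad_Cre, against 17.3% and 17.5% of all tested regions. The arms share no library. Among the 109 Ad_Cont calls the direction was shared by the Ad_Cre libraries in 98, and among the 108 Ad_Cre calls by the Ad_Cont libraries in 96. The direction was shared in 59.7% of all gene-end regions and 62.3% of all tested regions.

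Both arms called 10 regions by edgeR without that bound, which is 9.17% of the Ad_Cont calls and 9.26% of the Ad_Cre calls. All 10 had the same sign. How many of all tested regions both arms called was not counted, so the 10 are not a result particular to gene ends. Mical3, Gsta2 and 1600014C23Rik were higher. Of the 7 that were lower, Khdrbs2, Hspb2, Cit, Tbx1, Adgra1 and Ctla2b are named here. Tbx1 encodes a T-box transcription factor. Across gene-end regions the fold changes of the 2 arms had a Pearson correlation of 0.335, and elsewhere 0.410, over regions that share libraries and are not independent.

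Some calls were made in 1 arm. Stip1, the gene of a co-chaperone between HSP70 and HSP90, had 22.4, 22.4 and 31.6 scaled tags in the B2_minus_Ad_Cont libraries, against 18.8, 7.96 and 7.56 in the Cont_Ad_Cont libraries at a region 534 bp inside its start. The Ad_Cre arm gave 21.9, 28.7 and 23.6 in the B2_minus_Ad_Cre libraries, against 27.6, 22.9 and 25.4 in the Cont_Ad_Cre libraries, so the diets overlapped there. Replicate 1 of Cont_Ad_Cont stood apart from the other Cont_Ad_Cont libraries, and the difference with Ad_Cont had log2 fold change 1.16, SE 0.247; edgeR adjusted p 0.00619. Acot12, an acyl-CoA thioesterase gene of liver, differed with Ad_Cre (log2 fold change 0.91, SE 0.228; edgeR adjusted p 0.0231) and not past the threshold with Ad_Cont (log2 fold change 0.17, edgeR adjusted p 0.794). Cnp, a phosphodiesterase gene of myelin, was lower with Ad_Cont (log2 fold change -1.12, SE 0.263; edgeR adjusted p 0.0128). With Ad_Cre its log2 fold change was -0.44 (edgeR adjusted p 0.459). Stip1, Acot12 and Cnp also passed in the average of both arms (edgeR adjusted p 0.0175, 0.0231 and 0.00295). Their single-arm calls were lost without any one of 3, 4 and 3 libraries. No difference between the arms passed its own test: the interaction of diet and Ad called 0 of 19826 gene-end regions and 0 of all 101575 (0.0%) by edgeR, 0 by limma and 0 by DESeq2, with 974 gene-end regions (4.91%) at an unadjusted edgeR p under 0.05.

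**Figure D4:**
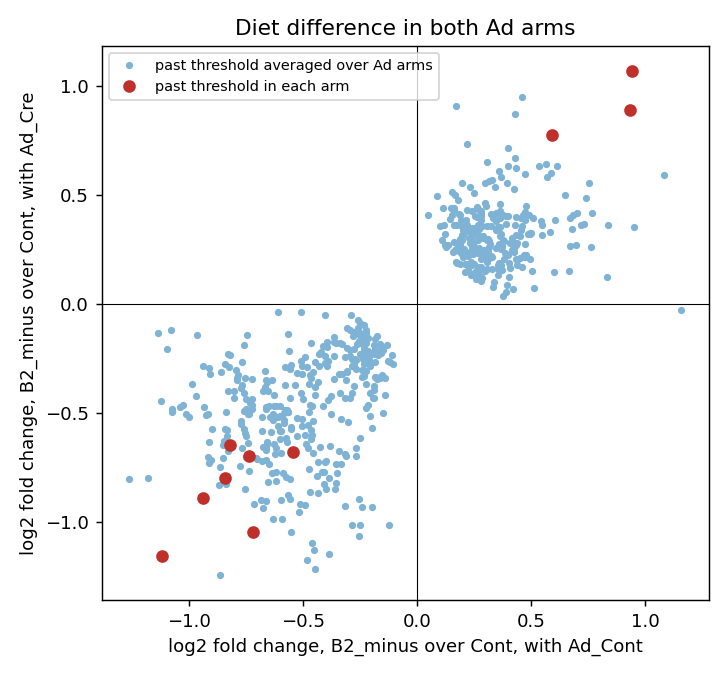
Log2 fold change of B2_minus over Cont with Ad_Cont (x axis) and with Ad_Cre (y axis) for the 634 gene-end regions past the threshold in the average of both arms. Large dots are the 10 regions past it in each arm, 3 higher and 7 lower in B2_minus.

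Gene lists chosen with earlier results of these data known were read by their gene-end regions in the averaged diet comparison, beside 3.20% called and a median log2 fold change of 0.00 over all gene-end regions. Scaling by all listed tags moved the list medians up by about 0.10, so that those of lists just below 0 turned above it. DESeq2 called 0 regions on every list described from here on except that of the aryl hydrocarbon receptor, where it called Gsta2, and edgeR with variance held at Poisson called 1 each on the receptor, inflammation and NRF2-target lists and 0 on the others. The rises and falls named on these lists are calls of edgeR without that bound. All 5 genes that take up riboflavin or turn it into FMN and FAD had gene-end regions, 11 in all. By edgeR 0 of them passed, with 1 at an unadjusted p under 0.05 and 0 calls by limma or DESeq2; their median log2 fold change was 0.02. The nearest to the threshold was the 3′ end of Rfk, riboflavin kinase, which makes FMN. It had 16.0 to 23.1 scaled tags in the 6 B2_minus libraries, against 11.9 to 17.9 in the 6 Cont libraries (log2 fold change 0.49, SE 0.163; edgeR adjusted p 0.0527).

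Of 39 regions at 22 of 23 mitochondrial flavoprotein genes, 2 rose and 0 fell by edgeR, with a median of 0.07; limma called 2 and DESeq2 and edgeR with variance held at Poisson 0. Dmgdh, dimethylglycine dehydrogenase, an FAD enzyme of choline breakdown, had 67.2, 60.8 and 67.3 scaled tags in the B2_minus_Ad_Cont libraries, against 49.7, 40.8 and 38.9 in the Cont_Ad_Cont libraries at its start (chr13:93674188-93674529), a region also within 1 kb of Bhmt2. With Ad_Cre it had 55.3, 62.3 and 46.2 in the B2_minus_Ad_Cre libraries, against 56.2, 39.8 and 51.7 in the Cont_Ad_Cre libraries, where the diets overlapped (log2 fold change 0.37, SE 0.0848; edgeR adjusted p 0.00207 in the average). Dhodh, dihydroorotate dehydrogenase, an FMN enzyme of pyrimidine synthesis, had 28.2 to 36.7 scaled tags in the 6 B2_minus libraries, against 16.6 to 28.1 in the 6 Cont libraries (log2 fold change 0.41, SE 0.126; edgeR adjusted p 0.0311), a call lost without any one of 6 libraries. Of 60 regions at complex I genes, whose complex carries FMN, 0 passed by edgeR, limma or DESeq2 (7 at an unadjusted edgeR p under 0.05; median 0.01). Of 28 regions at chromatin flavoenzymes and methylation genes 0 passed by edgeR and DESeq2 and 1 by limma, with 6 at an unadjusted edgeR p under 0.05. The closest was Mat1a, which makes S-adenosylmethionine in liver (log2 fold change 0.23, SE 0.0775; edgeR adjusted p 0.0539).

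In lipid and bile acid metabolism single sites moved. Cyp27a1, sterol 27-hydroxylase of bile acid synthesis, was the 1 of 37 regions of xenobiotic and bile acid genes to pass. It had 53.6 to 68.2 scaled tags in the 6 B2_minus libraries, against 45.7 to 62.9 in the 6 Cont libraries (log2 fold change 0.31, SE 0.0785; edgeR adjusted p 0.007). Insig1, which holds the sterol sensor complex in the endoplasmic reticulum, was 1 of 30 cholesterol synthesis regions to pass, and it fell. Its values were 73.6 to 89.5 scaled tags in the 6 B2_minus libraries, against 92.0 to 104 in the 6 Cont libraries (log2 fold change -0.28, SE 0.0580; edgeR adjusted p 0.00071). Scd1, the stearoyl-CoA desaturase gene, was 1 of 39 regions of fat synthesis to pass (log2 fold change 0.31, SE 0.0990; edgeR adjusted p 0.0374). Of 22 regions of fatty acid oxidation genes, Hadh rose (log2 fold change 0.33, SE 0.0956; edgeR adjusted p 0.0226) and Acaa2 fell (log2 fold change -0.18, SE 0.0588; edgeR adjusted p 0.0423). The list medians were 0.10 for xenobiotic and bile acid genes, -0.02 for cholesterol synthesis (0.08 with scaling by listed tags), 0.03 for fat synthesis and 0.02 for fatty acid oxidation (-0.0039 with loess). The Scd1, Hadh and Acaa2 calls were lost without any one of 9, 5 and 7 of the 12 libraries.

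Among 43 regions at 20 inflammation and acute phase genes, 1 rose and 4 fell, with a median of -0.07 that became 0.03 when libraries were scaled by all listed tags. Ccl7 was given above. Lcn2, the acute phase protein lipocalin 2, had 35.8 to 44.8 scaled tags in the 6 B2_minus libraries, against 46.4 to 60.8 in the 6 Cont libraries at its start (log2 fold change -0.40, SE 0.0889; edgeR adjusted p 0.00184). Socs3, a feedback inhibitor of cytokine signalling, fell at its 3′ end, with 15.8 to 23.9 scaled tags in the 6 B2_minus libraries, against 23.2 to 33.5 in the 6 Cont libraries (log2 fold change -0.56, SE 0.145; edgeR adjusted p 0.0084). The 3′ end of Stat3, the transcription factor of that pathway, rose (log2 fold change 0.40, SE 0.130; edgeR adjusted p 0.0496), and that call was lost without any one of 8 libraries. On the NRF2-target list, which leaves out Gsta2, a known target counted on the receptor list, 1 of 27 regions passed. This was at Pir, which encodes the iron-binding protein pirin. It had 50.1 to 63.6 scaled tags in the 6 B2_minus libraries, against 31.9 to 46.7 in the 6 Cont libraries (log2 fold change 0.46, SE 0.0876; edgeR adjusted p 0.000181). Ccn2, a secreted matricellular protein and YAP target, was the 1 of 49 YAP and cytoskeleton regions to pass, and fell (log2 fold change -0.39, SE 0.112; edgeR adjusted p 0.019); the call was lost without replicate 1 of Cont_Ad_Cont or 3 of B2_minus_Ad_Cre.

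Gdf15, a stress-induced cytokine gene, moved both ways. Its 3′ end region had 35.4 to 44.9 scaled tags in the 6 B2_minus libraries, against 39.7 to 54.0 in the 6 Cont libraries (log2 fold change -0.37, SE 0.0940; edgeR adjusted p 0.00742). Its start region had 50.1 to 66.3 scaled tags in the 6 B2_minus libraries, against 39.7 to 50.7 in the 6 Cont libraries (log2 fold change 0.27, SE 0.0852; edgeR adjusted p 0.0365), a call lost without any one of 7 libraries. Phgdh, the first enzyme of serine synthesis, fell (log2 fold change -0.42, SE 0.111; edgeR adjusted p 0.00981), but not past the threshold without replicate 3 of Cont_Ad_Cre. These were the 3 of 49 regions of the integrated stress response to pass. Of all genes, 21 had 2 changed gene-end regions, and in 6 of these the pair moved in opposite directions, among them Gdf15, Nipal1, Pxmp4, Sptb and Zbtb40.

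Hepatocyte identity genes had 44 gene-end regions, of which 2 rose and 2 fell (median 0.05). Tdo2, tryptophan dioxygenase, a liver enzyme, had 65.2 to 76.2 scaled tags in the 6 B2_minus libraries, against 44.8 to 62.9 in the 6 Cont libraries at its start (log2 fold change 0.32, SE 0.0743; edgeR adjusted p 0.00265). Onecut1, a liver transcription factor gene, fell (log2 fold change -0.26, SE 0.0841; edgeR adjusted p 0.0472), as did a weak site at the 3′ end of Tat, tyrosine aminotransferase (log2 fold change -0.59, SE 0.184; edgeR adjusted p 0.0364). The region shared by the Ttc6 start and the Foxa1 gene rose (log2 fold change 0.23, SE 0.0758; edgeR adjusted p 0.0499). When the peaks of a region were summed in place of the highest one, that region turned to -0.31. Of 58 regions at ribosomal protein genes 1 passed and the list median was -0.02. The Onecut1, Tat and Ttc6 calls were lost without any one of 9, 7 and 7 libraries. Immediate early genes (47 regions), cell cycle and histone genes (38) and circadian clock genes (42) had 0 calls by edgeR, limma or DESeq2, with 5, 6 and 5 regions at an unadjusted edgeR p under 0.05.

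The labelled cell type was read from its markers. All 10 hepatocyte marker genes had gene-end regions, 19 in all. Of 8 Kupffer cell and macrophage markers and 5 lymphocyte markers 0 had one in all 12 libraries, of 8 endothelial markers 2, of 8 stellate markers 2 and of 7 cholangiocyte markers 4. Summed over its regions, the endothelial list had 46.0 to 58.6 scaled tags in B2_minus libraries and 41.9 to 60.5 in Cont libraries, and the stellate list had 45.9 to 57.9 scaled tags in B2_minus libraries and 54.1 to 66.7 in Cont libraries. The cholangiocyte list had 304.9 to 319.0 in B2_minus libraries and 313.6 to 336.9 in Cont libraries. Lrat, a stellate marker that makes retinyl esters, fell (log2 fold change -0.59, SE 0.150; edgeR adjusted p 0.00715), a call lost without replicate 2 of Cont_Ad_Cre. Spp1, above, is on the cholangiocyte list, and its 2 regions were the only 2 of the 10 regions of that list to pass. The median log2 fold change of the 10 was 0.01. A smaller number of such cells and a less open site per cell cannot be told apart in these libraries, and the part of such cells in the diet differences was not tested.

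The Ad comparison asked what Cre did at gene ends. The gene-end regions of Ahr lie at an end of the gene and not over an exon known from the labels to be floxed, so they do not check the deletion. Its stronger region had means of 78.2 ± 0.571 scaled tags in B2_minus_Ad_Cont libraries and 73.1 ± 3.17 in Cont_Ad_Cont libraries, and of 67.1 ± 2.46 in B2_minus_Ad_Cre libraries and 70.9 ± 4.497 in Cont_Ad_Cre libraries (SD, n = 3 each). Over both diets the Ad_Cre change at this Ahr region was -0.13 on the log2 scale (edgeR adjusted p 0.488). Beside Gsta2, the 18 gene-end regions of the aryl hydrocarbon receptor, its partners and its targets did not pass in the diet comparison; 10 of the 12 listed genes had a region. Gsta2 itself differed between Ad_Cre and Ad_Cont by 0.02 on the log2 scale (SE 0.108, edgeR adjusted p 0.975).

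Few gene-end regions differed between Ad_Cre and Ad_Cont. Averaged over the diets 8 passed, 4 higher and 4 lower in Ad_Cre, which is 0.0404% of the gene-end regions, against 0.0955% of all tested regions (0.0482% higher and 0.0473% lower). In Cont libraries 1 passed, lower in Ad_Cre (0.00591% of all tested regions passed, 0.00394% lower), and in B2_minus libraries 1, higher in Ad_Cre (0.00197% of all tested regions passed, 0.000984% higher and 0.000984% lower). Cyp2e1 encodes the cytochrome P450 that oxidises ethanol, and its region 191 bp upstream of the start (chr7:140763426-140763766) had 14.6, 17.2 and 12.7 scaled tags in the B2_minus_Ad_Cre libraries, against 8.06, 8.53 and 8.42 in the B2_minus_Ad_Cont libraries. In Cont_Ad_Cre it had 18.7, 19.9 and 12.3, against 11.1, 9.95 and 7.56 in Cont_Ad_Cont. The Ad_Cre libraries were all above the Ad_Cont libraries, whose values lie near the lowest listed counts (log2 fold change 0.81, SE 0.182; edgeR adjusted p 0.0326).

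Il17ra, the receptor subunit for interleukin 17, had 57.8 to 72.5 scaled tags in the 6 Ad_Cre libraries, against 46.4 to 53.7 in the 6 Ad_Cont libraries (log2 fold change 0.38, SE 0.0767; edgeR adjusted p 0.0108). Mars1, the methionyl-tRNA synthetase gene, had 37.8 to 48.1 scaled tags in the 6 Ad_Cre libraries, against 26.9 to 41.2 in the 6 Ad_Cont libraries (log2 fold change 0.44, SE 0.104; edgeR adjusted p 0.0455). Shcbp1l rose by 0.51 on the log2 scale (edgeR adjusted p 0.0442). Itpka, a kinase of inositol trisphosphate, had 29.9 to 40.8 scaled tags in the 6 Ad_Cre libraries, against 43.7 to 52.9 in the 6 Ad_Cont libraries (log2 fold change -0.43, SE 0.0961; edgeR adjusted p 0.0302). Septin5, a cytoskeletal GTPase gene, fell by 0.55, Slc35f4 by 0.80 and Hace1, a ubiquitin ligase gene, by 0.36 (edgeR adjusted p 0.0326, 0.036 and 0.0455). Each of the 8 calls was lost without at least 1 library, Il17ra without 1 (replicate 2 of Cont_Ad_Cre) and the others without 6 to 11 of the 12, and none was called by DESeq2 or by edgeR with the variance held at Poisson.

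The single-diet calls were at a pair of starts. Ybx3, a cold-shock domain protein gene, had 46.3, 47.7 and 40.3 scaled tags in the Cont_Ad_Cre libraries, against 66.3, 69.7 and 62.6 in the Cont_Ad_Cont libraries (log2 fold change -0.57, SE 0.116; edgeR adjusted p 0.0376). Between diets with Ad_Cre, Ybx3 was higher in B2_minus (log2 fold change 0.52, SE 0.114; edgeR adjusted p 0.0063). With B2_minus the Ad_Cre change was 0.15. Smc3, a subunit of cohesin, had 41.7, 33.5 and 40.8 in the B2_minus_Ad_Cre libraries, against 20.6, 23.5 and 17.9 in the B2_minus_Ad_Cont libraries (log2 fold change 0.90, SE 0.169; edgeR adjusted p 0.017). The B2_minus_Ad_Cont libraries were the low ones: Cont_Ad_Cre had 36.4, 47.7 and 41.2 and Cont_Ad_Cont 46.4, 38.8 and 46.4. Between diets with Ad_Cont, Smc3 was lower in B2_minus (log2 fold change -1.08, SE 0.167; edgeR adjusted p 2.67e-05). Neither region passed the interaction test (edgeR adjusted p 0.578 and 0.578). The Ybx3 call was lost without any one library of its comparison, and the Smc3 call without replicate 1 or 3 of either group in its comparison.

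The share of tags that fell at gene ends was close to constant. Of the tags in the 101575 shared regions, gene-end regions held 29.5 ± 0.291% in B2_minus_Ad_Cont libraries and 29.8 ± 0.133% in Cont_Ad_Cont libraries (SD, n = 3 each). With Ad_Cre they held 29.5 ± 0.102% in B2_minus libraries and 29.5 ± 0.159% in Cont libraries. The diet difference was -0.126 percentage points and the Ad difference -0.0990 (exact two-sided permutation test within the other factor, 400 arrangements, smallest p 0.005; p = 0.3 and 0.42, adjusted over 10 comparisons 0.4 and 0.467). As a share of all listed tags the order turned. Gene-end regions then held 21.4 ± 0.0813% in B2_minus_Ad_Cont libraries and 20.7 ± 1.02% in Cont_Ad_Cont libraries, and 21.2 ± 0.5003% in B2_minus_Ad_Cre libraries and 19.2 ± 0.274% in Cont_Ad_Cre libraries. The diet difference was 1.34 points (exact permutation test, p = 0.02, adjusted 0.1) and the Ad difference -0.907 (p = 0.035, adjusted 0.117), and neither passed after adjustment. The lists differed in length, at 206940 to 235220 peaks in B2_minus libraries and 200698 to 281141 in Cont libraries, and the part of list length in this share was not tested.

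**Figure D5:**
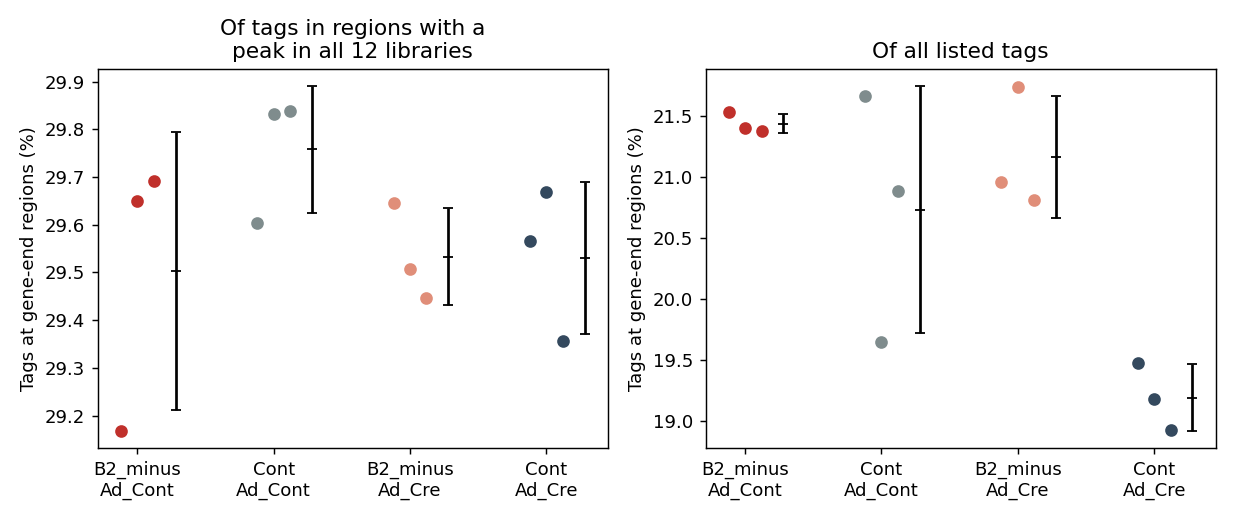
Percent of tags at gene-end regions in each library, of the tags in the regions shared by all 12 libraries (left) and of all listed tags (right); the y axes do not start at 0. Dots are libraries and bars the mean ± SD of 3; on the left all 12 lie between 29.2% and 29.8%, and on the right Cont_Ad_Cre libraries are lowest.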

How the data were processed

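The data are 12 ATAC-seq libraries of mouse hepatocytes. The authors deposited 1 peak list per library, without a header, giving each 200-bp peak its count of tags in whole numbers; that these are unscaled counts was read from the values. Per the submitters' processing notes, Bowtie2 and HOMER and the build mm10 were used; no source used here gives their versions, roles, duplicate handling or read shifting. The lists held 200698 to 281141 peaks and 3897632 to 5557678 tags each, once the 0.151% of peaks outside the autosomes and X had been removed; sequencing depth is unknown.

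Peaks overlapping by at least 1 bp were merged, and a library's value was its highest peak in the region. Gene ends came from RefSeq's table for GRCm38.p6, and strands from its promoter table, which gave 17273 of 21627 protein-coding genes (79.9%). Of the regions, 13346 had a promoter entry for the nearest gene. Counts in the 101575 regions with a peak in all 12 libraries were tested with edgeR 4.0.16 in R 4.3.3 (TMM, quasi-likelihood F test without a lower bound at Poisson variance, 4 groups, no block). Scaled tags are counts divided by the TMM-adjusted library size relative to the mean library. Replicates varied less than counting noise (chi-square per degree of freedom 0.527 to 0.581), no pair of files was identical, and no pair could be singled out as 1 library. Limma 3.58.1 on log2(scaled tags + 1), DESeq2 1.42.0, other scalings and filters, other merging and leaving out each library were tried. The edgeR step was tested on simulated counts with Poisson variance. In these, 200 of 101575 regions were changed in B2_minus by 1 on the log2 scale, up or down. It recovered 94 with Ad_Cont, 103 with Ad_Cre and 172 in the average, with 6, 7 and 6 calls at unchanged regions. The gene-end calls reported in the averaged diet were smaller, with a median log2 fold change of 0.31 for rises and -0.53 for falls. Recovery of changes of that size was not examined. Replicates here varied less than Poisson noise, so this run cannot check calls that depend on leaving out the lower bound.

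Named regions were the 10 largest changes each way past the threshold in the averaged diet comparison with the same sign in both arms, the 5 largest each way in every other comparison, the 5 strongest, and from each gene list the lowest p and up to 4 past the threshold. Predicted genes could be passed over. A few genes that the rule names are not reported here. The members, lists and form of the test were chosen with earlier results of these data known. Replicate numbers did not pair libraries: the correlation of same-numbered deviations was -0.0256 to 0.0241 in 18 pairs.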

Additional observations from a re-analysis of the deposited data

Results flagged for a closer look

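At the region at the 3′ end of Socs3 the Ad comparison went opposite ways in the 2 diets. In B2_minus every Ad_Cre library (18.8, 23.9 and 18.1 scaled tags) was above every Ad_Cont library (17.9, 16.0 and 15.8). In Cont every Ad_Cre library (23.2, 23.9 and 26.3) was below every Ad_Cont library (26.5, 29.9 and 33.5). The difference between the 2 changes was 0.57 on the log2 scale, and the interaction test did not pass (edgeR adjusted p 0.963). Separation of all Ad_Cre from all Ad_Cont libraries was common, at 10.9% of gene-end regions in B2_minus and 11.2% in Cont. How many regions separated in both diets in opposite directions was not counted, so Socs3 cannot be called unusual on this ground.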

How the results depend on the processing

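Counts of called gene-end regions are given here in the order diet with Ad_Cont, diet with Ad_Cre and averaged diet, where the values reported are 109, 108 and 634. DESeq2 gave 0, 0 and 4 (227, 205 and 503 at an unadjusted p under 0.05), edgeR with variance held at Poisson 2, 5 and 60, and summed peaks 10, 8 and 138. In the average these were 0.0202%, 0.303% and 0.696% of gene-end regions, against 0.0453%, 0.981% and 1.45% of all tested regions. With library sizes from listed tags diet with Ad_Cre gave 866 and the average 2039. Limma gave 67 with Ad_Cre. Regions with a peak in at least 3 libraries, with missing values filled by the library's lowest listed count, gave 14, 16 and 694, of which 597 of the 694 were higher. Keeping only regions with at least 10 tags in every library gave 181 higher and 367 lower in the average.

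For Ad_Cre over Ad_Cont in Cont, where 1 was reported, listed tags and limma each gave 2, regions in at least 3 libraries 10, and loess, DESeq2 and bounded edgeR 0 (69 for DESeq2 and 304 for bounded edgeR at an unadjusted p under 0.05). In B2_minus, where 1 was reported, listed tags, DESeq2, bounded edgeR and a merge overlap of 100 bp gave 0 (54 for DESeq2 and 280 for bounded edgeR at an unadjusted p under 0.05), regions in at least 3 libraries 9 and summed peaks 4. Averaged over diets, where 8 were reported, listed tags gave 26, limma 4, gene ends within 500 bp 4, summed peaks 1, and DESeq2 and bounded edgeR 0 (114 and 399 unadjusted). The interaction gave 5 with regions in at least 3 libraries and 1 with summed peaks.

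Leaving out 1 library gave 22 to 111 calls for diet with Ad_Cont, fewest without replicate 1 of B2_minus_Ad_Cont, and 31 to 113 with Ad_Cre, fewest without replicate 3 of Cont_Ad_Cre. Leaving out any library of an arm's own comparison gave at most 58 calls with Ad_Cont and 59 with Ad_Cre, and leaves groups of 2. The averaged diet kept 437 to 568, the Ad comparison 0 to 1 in each diet and 1 to 9 averaged, and the interaction 0. Of 42 named regions past the threshold in the averaged diet, 25 stayed past it in all 12 such fits, and 16 with variance held at Poisson.

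The diet difference in the share of tags at gene ends turned to 1.34 points of all listed tags and 0.37 over regions in at least 3 libraries, and was -0.262 with at least 10 tags. The Ad difference was -0.907 of all listed tags and -0.052 to -0.183 with 1 library left out, past the threshold without replicate 1 of B2_minus_Ad_Cont. Named regions kept their direction under every alternative except the Ttc6 region, at -0.31 with summed peaks. The cause of these changes was not tested.

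With replicate number as a block the counts were 107, 112 and 614 for diet, 1, 1 and 8 for Ad and 0 for the interaction; same-numbered libraries did not deviate together. Peak lists start at 6 to 8 tags and no listed peak exceeded 350 tags, so a site lost in 1 library was not tested and falls at weak sites are bounded.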
